A study of Mus musculus with 6 samples.

Results

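The 39 genes described here code for the WNT ligands, their receptors and the secreted proteins that hold the ligands back. They were chosen by symbol alone from the 55341 genes of the count table, whatever their level: 19 WNT ligands, 10 Frizzled receptors (*Fzd*), the co-receptors *Lrp5* and *Lrp6*, 4 secreted Frizzled-related proteins (*Sfrp*) and 4 Dickkopf proteins (*Dkk*). RNA was sequenced from the aortic vessels of 3 miRNA-26b-/- mice (libraries M2626, M2627 and M2628) and 3 miRNA-26b+/+ mice (M2629, M2630 and M2631), all 8 weeks of age and on a chow diet. The question was how the loss of a microRNA alters the vessel's transcripts, and the comparison was miRNA-26b-/- against miRNA-26b+/+.

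The miRNA-26b-/- mice lacked the segment with the microRNA in an intron of *Ctdsp1*, so that both its arms were lost. The segment had been flanked by loxP sites in 129/Sv embryonic stem cells and removed with tamoxifen in CreERT2 mice, and the CreERT2 transgene was then bred out. The labels call the other mice naive and give C57BL/6NCrl as the strain of both groups. Breeding from 129/Sv cells can leave 129/Sv sequence around the targeted locus, which cannot be told apart from the deletion here. On the same chromosome lie *Wnt6* and *Wnt10a*, at 0.377 and 0.397 Mb from *Mir26b*, and *Fzd5* and *Fzd7*, at 9.66 and 14.9 Mb. Each library is 1 mouse, and nothing in the labels ties a mouse of one group to a mouse of the other.

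WNT proteins are secreted, lipid-modified ligands. With a Frizzled receptor and LRP5 or LRP6 they stabilise beta-catenin, which then switches on genes such as *Axin2*, while other WNT and Frizzled pairs act through cell polarity and calcium. SFRP proteins bind WNT ligands outside the cell, and Dickkopf proteins such as DKK1 bind LRP5 and LRP6. In the vessel wall the pathway is known for its part in endothelial and smooth muscle growth and in calcification.

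The microRNA sequences are shown because base pairing of the seed, bases 2 to 8 counted from the 5′ end and set in capitals, is how a microRNA finds its targets. The arms of miRNA-26b lie on chromosome 1 at chr1:74394324-74394344 (5p) and chr1:74394360-74394381 (3p), forward strand, in the RefSeq annotation of GRCm38.p6. miRNA-26a-5p, encoded by *Mir26a-1* and *Mir26a-2* on chromosomes 9 and 10, was not deleted and has the same seed as miRNA-26b-5p.
mmu-miR-26b-5p: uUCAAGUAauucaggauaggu
mmu-miR-26b-3p: cCUGUUCUccauuacuuggcuc
mmu-miR-26a-5p: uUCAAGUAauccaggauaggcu

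A match to the seed of miRNA-26b-5p was looked for on the sense strand of the longest annotated 3′ UTR of each gene, as TACTTGAA (8mer), TACTTGA (7mer-m8) or ACTTGAA (7mer-A1), each stretch counted once as the longest of these. Of the 39 genes, 6 had a match (15.4%), against 18.3% of the 21028 genes with a 3′ UTR. *Wnt5a* had 2 matches and *Fzd6* 2, and *Wnt9b*, *Fzd4*, *Wnt3a* and *Wnt8b* had 1 each. The last pair had no counts in any library. A match was thus carried by 4 of the 28 tested genes (14.3%, against 21.4% of all genes tested with a 3′ UTR). The matches of these 4 genes are shown within their 3′ UTR, matched bases in capitals and all in GRCm38.
*Wnt5a*, 8mer, chr14:28524328-28524357, forward strand: tgttcctagtgTACTTGAAcagttgcattt
*Wnt5a*, 7mer-A1, chr14:28523766-28523794, forward strand: gaaattagaaaACTTGAAgtttcctacat
*Wnt9b*, 7mer-A1, chr11:103728873-103728901, reverse strand: gttaaagatgaACTTGAAgttgaggctga
*Fzd4*, 7mer-m8, chr7:89412049-89412077, forward strand: tcttcttattgTACTTGActtcacagtcc
*Fzd6*, 7mer-m8, chr15:39036667-39036695, forward strand: cccacctggaaTACTTGAggacctggggt
*Fzd6*, 7mer-A1, chr15:39036983-39037011, forward strand: tctgtttttaaACTTGAAagaaacaacag
*Sfrp1*, *Sfrp5* and *Fzd1*, the genes that the results below turn on, had no match to the 5p seed. The seed of the 3p arm, added after seeing the data, matched 14 of the 39 genes (35.9%, against 20.1% of all genes with a 3′ UTR). Of the 28 tested genes it matched 9 (32.1%, against 23.2% of all genes tested with a 3′ UTR). Of these, *Wnt5a*, *Wnt9b*, *Fzd3*, *Sfrp2* and *Dkk2* were on the higher side in miRNA-26b-/- mice. *Wnt10b*, *Fzd4*, *Fzd8* and *Sfrp1* were on the lower side. A match is a stretch of letters, and no binding was measured.

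The libraries held between 25706728 and 33345037 counts. *Mir26b* itself had 20 counts in M2630 and 0 in the other 5 libraries, so these libraries do not check the genotype. In CPM, the counts of a gene scaled to a common library size, its host *Ctdsp1* had 201, 182 and 182 in miRNA-26b-/- mice and 148, 166 and 179 in miRNA-26b+/+ mice (log2 fold change 0.20, standard error (SE) 0.14, adjusted p = 0.866). Of the variance over the most variable genes, 31.9% lay along the first principal component, which had the miRNA-26b-/- libraries M2627 and M2628 at its ends. Smooth muscle markers such as *Myh11* and *Acta2* summed to between 31080 and 41970 CPM, and endothelial markers such as *Pecam1* and *Vwf* to between 486 and 1759 CPM, although the labels name endothelial cells. The endothelial sum was low in 2 of the 3 miRNA-26b-/- libraries (486, 505 and 1759 CPM, against 1214, 1662 and 1463 in miRNA-26b+/+). Schwann cell markers went the other way (280.4, 236 and 151 CPM against 30.4, 73.1 and 98.9). What these markers and the 2 libraries contribute to the results below was not tested, except where values without a library are given.

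Of the 39 genes, 7 had no count in any library: *Wnt1*, *Wnt3*, *Wnt3a*, *Wnt8a*, *Wnt8b*, *Wnt10a* and *Dkk4*. A further 4 had a few reads and fell under the filter of more than 1 CPM in at least 2 libraries (*Wnt7a*, *Wnt7b*, *Fzd10* and *Dkk1*). The other 28 were tested: 11 ligands, 9 Frizzled receptors, both co-receptors, all 4 SFRP genes and 2 Dickkopf genes. The canonical ligands *Wnt1*, *Wnt3* and *Wnt3a*, the best-known activators of beta-catenin, were thus not detected at this depth in any mouse, and a count of 0 allows up to 3 in a library, for counting error only.

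None of the 28 genes passed an adjusted p of 0.05 in edgeR's quasi-likelihood test (smallest 0.736), and 0 passed with DESeq2, limma voom or edgeR's likelihood ratio test. Of all genes tested 0.00624% passed, 1 of 16017. At an unadjusted p under 0.05, *Sfrp5* was higher and *Fzd1* lower in miRNA-26b-/- mice, 7.14% of the 28 genes against 6.46% of all genes tested (3.4% higher and 3.07% lower). The groups did not overlap for 3 of the 28 genes (10.7%), *Fzd1*, *Fzd7* and *Wnt9a*, against 11.5% of all genes. Of the 28, 14 were on the higher and 14 on the lower side, with a median log2 fold change of -0.02 against 0.01 for all genes. These shares lie close to those of the whole table.

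**Figure D1:**
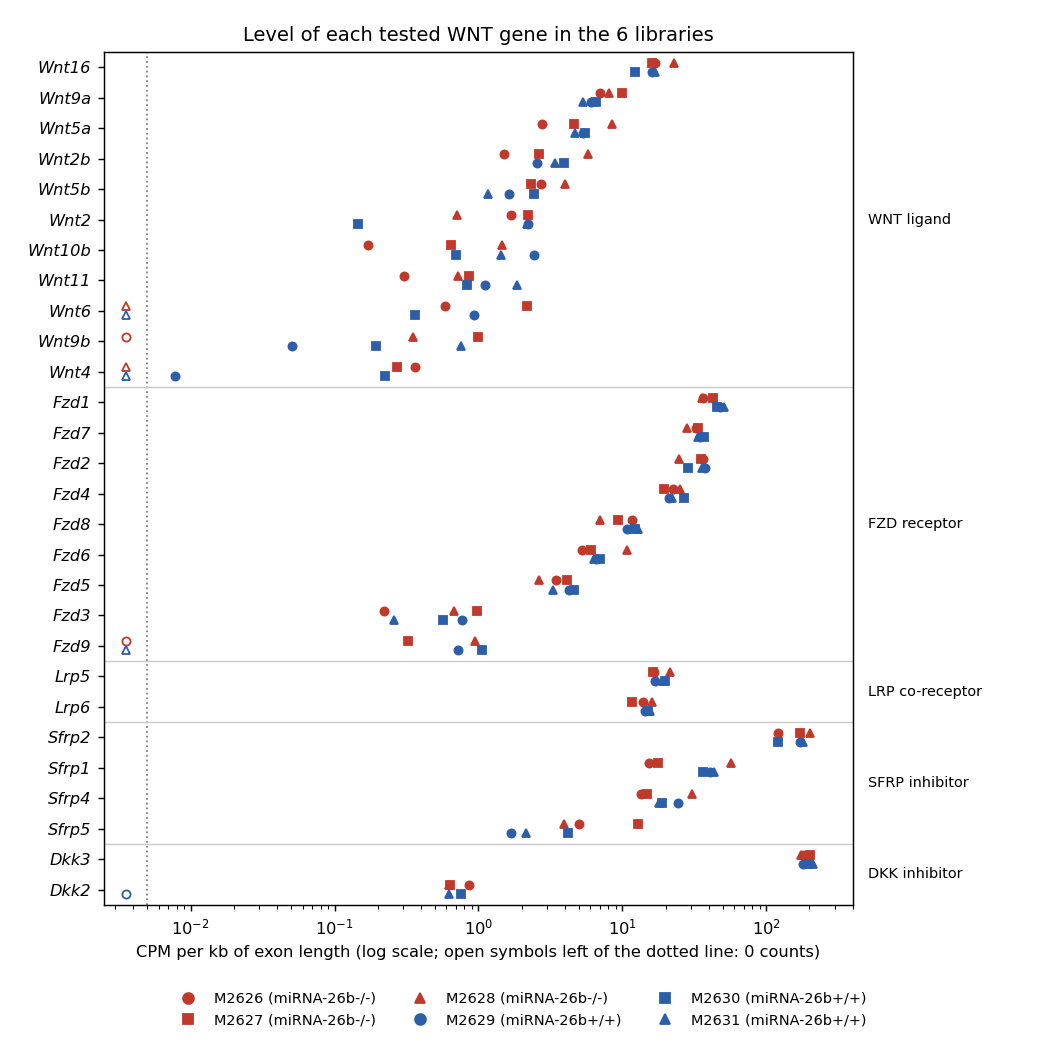
Level of each of the 28 tested WNT genes in every library, as CPM per kb of exon length on a log axis, miRNA-26b-/- in red and miRNA-26b+/+ in blue with 1 symbol per mouse; open symbols left of the dotted line had 0 counts. *Dkk3* and *Sfrp2* lie at the top of the range, and the red symbols of *Sfrp1*, *Sfrp4* and *Wnt5a* are spread more widely than the blue ones.

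Levels between genes are compared per kb of exon length. *Dkk3* stood highest with a mean of 191 CPM per kb over the 6 libraries, followed by *Sfrp2* with 161, *Fzd1* with 43.2, *Sfrp1* with 35.2, *Fzd7* with 33.3 and *Fzd2* with 33.1. The ranges of *Dkk3* (174 to 212) and *Sfrp2* (120.0 to 203) overlapped over the libraries, as did those of *Fzd1*, *Sfrp1*, *Fzd7* and *Fzd2*. *Dkk3* was above every Frizzled gene in all libraries. The highest ligand, *Wnt16*, reached 16.8 CPM per kb. A *Dkk* and an *Sfrp* gene were thus the most abundant transcripts of the family in these vessels. Summed per library, the SFRP genes had 154, 216 and 294 CPM per kb in miRNA-26b-/- mice and 239, 181 and 244 in miRNA-26b+/+ mice. The Frizzled genes summed to 149, 152 and 136 against 164, 163 and 166, without overlap. The sums of the SFRP genes, ligands, co-receptors and Dickkopf genes overlapped. *Fzd1*, *Fzd7*, *Fzd2* and *Fzd4* weigh most in the Frizzled sum, and of all single genes tested 11.5% did not overlap.

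Among the ligands, *Wnt16* had 73.1, 70.3 and 99.97 CPM in miRNA-26b-/- mice and 69.7, 53.8 and 73.2 in miRNA-26b+/+ mice. Only M2628 stood above all miRNA-26b+/+ libraries, and the difference did not pass (log2 fold change 0.30, SE 0.20, adjusted p = 0.851). *Wnt9a* had 23.1, 33.3 and 26.8 CPM against 20.1, 21.7 and 17.7, so that every miRNA-26b-/- mouse was above every miRNA-26b+/+ mouse (27.7 ± 5.16 and 19.9 ± 1.999, SD, n = 3 each). The exact permutation test gave p = 0.1, the smallest that 3 against 3 mice allow, and edgeR an adjusted p = 0.784 (log2 fold change 0.50, SE 0.26). *Wnt9a* stayed on the higher side without each library in turn, between 0.34 without M2627 and 0.61 without M2626.

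*Wnt5a*, the ligand best known for signalling without beta-catenin and the one with 2 seed matches, had 21.8, 36.3 and 66.6 CPM in miRNA-26b-/- mice and 41.4, 43.4 and 36.7 in miRNA-26b+/+ mice. Its group means were close (41.6 ± 22.9 and 40.5 ± 3.43, SD, n = 3 each), and the miRNA-26b-/- mice were spread on both sides of the miRNA-26b+/+ range. The log2 fold change was 0.04 (SE 0.31, adjusted p = 0.993), and -0.45 without M2628 (adjusted p = 0.568). *Wnt2b*, which like the other ligands of this paragraph apart from *Wnt5a* was named after its values were seen, had the same order of the miRNA-26b-/- libraries, 6.32, 11.2 and 24.3 CPM against 10.8, 16.6 and 14.4. *Wnt5b* had 7.18, 6.16 and 10.6 CPM against 4.30, 6.48 and 3.11, and its groups overlapped through M2627 and M2630 (0.79, SE 0.50, adjusted p = 0.844). *Wnt2*, a beta-catenin ligand, had 3.79, 4.97 and 1.59 CPM against 5.02, 0.328 and 4.89, with 1 low library in each group. *Wnt11* had 1.25, 3.57 and 2.98 CPM against 4.56, 3.46 and 7.63 (-0.97, SE 0.63, adjusted p = 0.851). *Wnt9b*, with a 7mer-A1 match, had 0, 151 and 45 counts against 7, 24 and 103. Of the 11 tested ligands, 9 were on the higher side (median 0.30), and for 0 of them the unadjusted p was under 0.05. Of all genes tested, 8228 of 16017 were higher (median 0.01). With a library left out, the sign turned for *Wnt2*, *Wnt2b*, *Wnt5a*, *Wnt6* and *Wnt9b*.

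The largest fitted differences among the ligands rested on few reads. *Wnt4* had 39, 38 and 0 counts in miRNA-26b-/- mice and 1, 26 and 0 in miRNA-26b+/+ mice (log2 fold change 1.51, SE 1.598, adjusted p = 0.931). *Wnt6* had 33, 159 and 0 counts against 63, 22 and 0 (1.18, SE 1.16, adjusted p = 0.921), and turned to -0.64 without M2627. In both genes M2628 and M2631, 1 library of each group, had no count. *Wnt10b*, named after its values were seen, had 15, 74 and 140 counts against 252, 65 and 147 (log2 fold change -0.999, SE 0.71, adjusted p = 0.859). *Wnt7b* had 17 and 14 counts in M2626 and M2627 and 0 in the other 4 libraries and was not tested.

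The Frizzled receptors leaned to the lower side, 7 of the 9 tested, with a median log2 fold change of -0.16. Among all genes tested, 7789 of 16017 were lower (median 0.01). When single libraries were left out, the sign turned for *Fzd2*, *Fzd4* and *Fzd9* of the 7, and also for *Fzd3* and *Fzd6*. *Fzd1* (GRCm38, chromosome 5, 4753839 to 4758035, reverse strand), the most abundant receptor per kb, had 152, 180.2 and 151 CPM in miRNA-26b-/- mice and 201, 190 and 213 in miRNA-26b+/+ mice. The groups did not overlap (161 ± 16.4 and 201 ± 11.8, SD, n = 3 each), with a log2 fold change of -0.32 (SE 0.14, unadjusted p = 0.0457, adjusted p = 0.757). Without M2627 the unadjusted p was 0.031, and in the other 5 fits that left out a library it was between 0.06 and 0.109.

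*Fzd7* (chromosome 1, 59482424 to 59486955, forward strand) had 148, 152 and 128 CPM against 158, 167 and 153, without overlap but with a gap of under 2 CPM between M2627 and M2631 (log2 fold change -0.16, SE 0.15, adjusted p = 0.914). *Fzd2* had 134, 128 and 90.7 CPM against 138, 104 and 132, and the groups overlapped (-0.09, SE 0.18, adjusted p = 0.972). In all 3 of these receptors M2628 was the lowest library. *Fzd8*, named after its values were seen, had 69.8, 56.2 and 41.7 CPM against 64.0, 73.0 and 77.2 (-0.36, SE 0.21, adjusted p = 0.811). *Fzd6*, which has 2 seed matches, was highest in M2628, with 25.2, 29.1 and 51.7 CPM against 31.5, 33.9 and 30.5 (0.14, SE 0.27). *Fzd4*, with 1 match, had 151, 130.2 and 168 CPM against 141, 180.4 and 149 (-0.06, SE 0.16). Of the receptors left, also named after their values were seen, *Fzd5* had 23.8, 28.8 and 18.1 CPM against 29.3, 32.1 and 22.8 (-0.24, SE 0.26), *Fzd3* between 2.85 and 12.5 CPM over the 6 libraries, and *Fzd9* between 0 and 67 counts. The groups overlapped for each of these receptors from *Fzd2* on. *Fzd5* shares 1233 exon bases with *Gm38058*, which had between 42 and 106 counts, and reads of that stretch were counted for both genes.

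The 4 tested genes with a 5p seed match did not share a direction: 3 were on the higher and 1 on the lower side, none with an unadjusted p under 0.05, and their median was 0.09, against 0.00 for the 2881 tested genes with a match. The sign of each of the 4 turned when single libraries were left out: *Wnt5a* ranged from -0.45 to 0.33, *Wnt9b* from -0.86 to 2.04, *Fzd4* from -0.16 to 0.05 and *Fzd6* from -0.23 to 0.32.

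Both co-receptors were about level between the groups. *Lrp5* had 162, 158 and 209 CPM in miRNA-26b-/- mice and 164, 194 and 188 in miRNA-26b+/+ mice (log2 fold change -0.04, SE 0.16, adjusted p = 0.988). *Lrp6* had 191, 159 and 222 CPM against 198, 207 and 214 (-0.11, SE 0.15, adjusted p = 0.942). For both, M2628 was the highest and M2627 the lowest of the 6 libraries. The signs of these small differences turned when single libraries were left out.

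**Figure D2:**
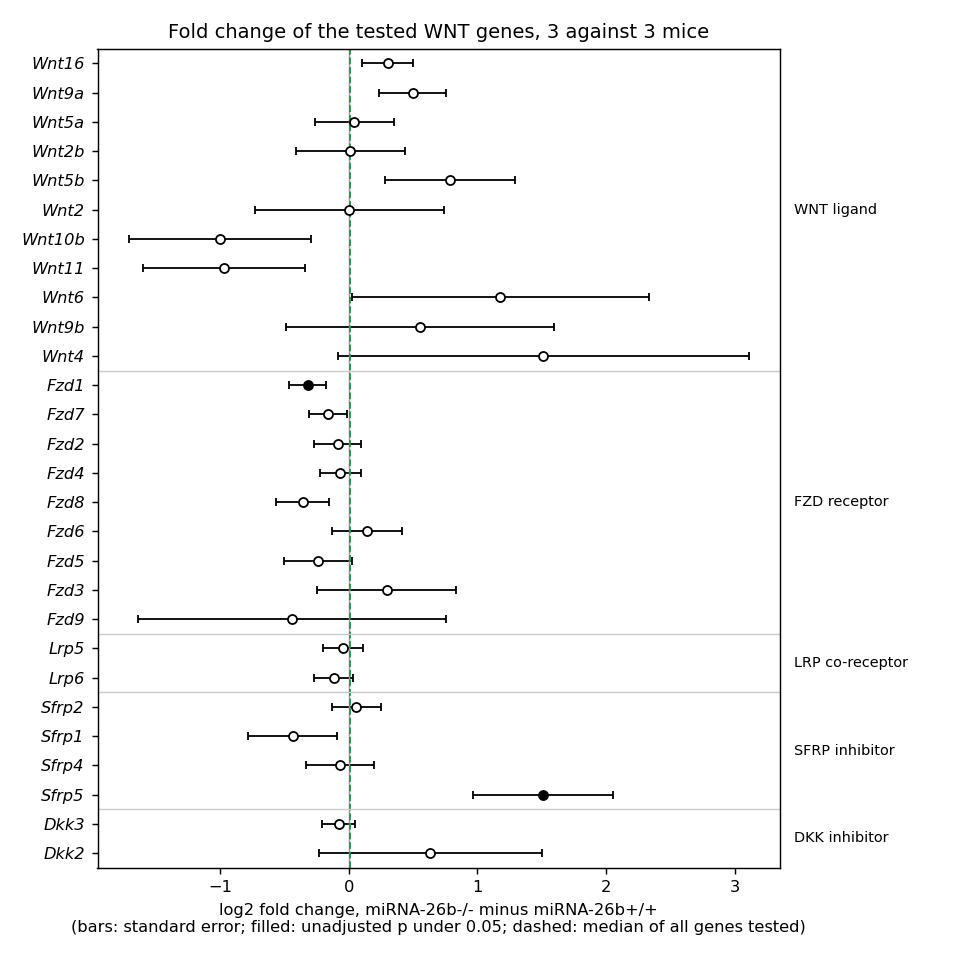
Log2 fold change of the 28 tested WNT genes, miRNA-26b-/- minus miRNA-26b+/+ (3 mice each), by role, with the standard error as bars, filled symbols for an unadjusted p under 0.05 and the median of all genes tested as a dashed line. Filled symbols are seen for *Fzd1* at -0.32 and *Sfrp5* at 1.51, and the bars are widest for the genes with few reads such as *Wnt4*.

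*Sfrp1* split the miRNA-26b-/- mice. Per library it had 67.3, 76.9 and 248 CPM in miRNA-26b-/- mice and 179, 159 and 191 in miRNA-26b+/+ mice. M2626 and M2627 were thus under each of the 3 miRNA-26b+/+ libraries and M2628 over each of them. The means were 131 ± 102 and 177 ± 16.0 (SD, n = 3 each), and over all 6 libraries the difference did not pass (log2 fold change -0.43, SE 0.35, unadjusted p = 0.231, adjusted p = 0.887). Without M2628 it was -1.29 (SE 0.17, adjusted p = 0.00114, which went up to 1.0 over all fits), in a fit that called 82 of 15654 genes (0.524%). Without M2626 it was -0.13 and without M2627 -0.15, with adjusted p-values of 0.981 for both. *Sfrp1* was the only gene of the 28 with an adjusted p under 0.05 in any fit run, and that call rested on leaving out the 1 miRNA-26b-/- mouse with a high level. The gene lies on chromosome 8 (GRCm38, 23411502 to 23449632, forward strand).

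In the miRNA-26b-/- libraries the summed endothelial, macrophage and fibroblast markers had the same order as *Sfrp1*. In M2626, M2627 and M2628 the endothelial sum stood at 33.6%, 34.9% and 122% of the miRNA-26b+/+ mean, and *Sfrp1* at 38.1%, 43.6% and 141%. Of the 8 endothelial markers 7 were on the lower side in miRNA-26b-/- mice, and *Tek* had an unadjusted p under 0.05. *Pecam1* had 184, 174 and 716 CPM against 487, 630.4 and 593, and *Vwf* 103, 107 and 603 against 389, 601 and 521, and both weigh heavily in the sum. The markers were not uniform: *Kdr* was lowest in M2628 (22.0, 29.6 and 8.82 CPM against 31.8, 22.9 and 19.9), and *Erg* was not low in M2626 (75.3, 59.2 and 97.8 against 62.1, 67.1 and 79.4). Within the miRNA-26b+/+ group the orders differed, since M2630 was highest for the endothelial sum (115%) and lowest for *Sfrp1* (90.3%). The macrophage sum was also low in M2626 and M2627 (49.9% and 65.5%) and high in M2628 (159%). The fibroblast sum had 86.8%, 97.4% and 164% in these libraries. In whole vessels, fewer cells of a type and less RNA per cell cannot be told apart, and the part of cell composition in the level of *Sfrp1* was not tested.

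*Sfrp4* followed the same order of the miRNA-26b-/- libraries with a smaller span, 56.3, 62.3 and 128 CPM in miRNA-26b-/- mice and 103, 78.9 and 75.5 in miRNA-26b+/+ mice. Its log2 fold change was -0.06 (SE 0.26, adjusted p = 0.991), and without M2628 it was -0.53 (SE 0.20, unadjusted p = 0.0167, adjusted p = 0.324). *Sfrp2*, the most abundant SFRP gene, had 258, 367 and 436 CPM against 369, 262 and 388, and the groups overlapped widely (0.06, SE 0.19, adjusted p = 0.987). Its exons share 347 bases with *Gm26771*, and since reads were counted without strand and for each gene they overlap, the reads of this stretch entered both genes (1484 to 4268 counts for *Gm26771*). The collagen genes *Col3a1* (3357, 3782 and 6739 CPM against 3823, 3392 and 4543) and *Col1a1* (2559, 2823 and 4732 against 2261, 2340 and 3043) weigh most in the fibroblast marker sum. *Dcn* and *Pdgfra* are also among its genes, and *Ly6a* had another order (119, 117 and 134 CPM against 115, 140 and 110). The sum stood at 86.8%, 97.4% and 164% of the miRNA-26b+/+ mean in M2626, M2627 and M2628. *Sfrp4* stood at 65.7%, 72.8% and 149%, and *Sfrp2* at 76.1%, 108% and 128%. The part of the fibroblast share in these levels was not tested.

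*Sfrp5*, known as an adipokine of fat tissue that binds WNT5A, had the smallest p of the family. It had 9.48, 24.3 and 7.47 CPM in miRNA-26b-/- mice and 3.19, 7.97 and 4.10 in miRNA-26b+/+ mice (13.7 ± 9.17 and 5.09 ± 2.54, SD, n = 3 each). M2627 stood far above the rest, and M2630, the highest miRNA-26b+/+ library, was above M2628. The log2 fold change was 1.51, a 2.85-fold higher level (SE 0.54, unadjusted p = 0.0142, adjusted p = 0.736). Without M2627 it fell to 0.76 (unadjusted p = 0.203), and the unadjusted p was under 0.05 in 3 of the 6 fits that left out a library. *Sfrp5* lies on chromosome 19 (GRCm38, 42197971 to 42202252, reverse strand).

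The library with the most *Sfrp5* in each genotype was also the one with the highest adipocyte sum. The adipocyte sum, which includes *Adipoq* and *Plin1*, was 1417, 3011 and 956 CPM in miRNA-26b-/- mice and 1404, 2034 and 724 in miRNA-26b+/+ mice. *Cfd* and *Fabp4* weigh most in it. *Lep* was highest in M2626 (9.4 CPM, against 7.8 in M2627) and *Cidea* in M2630 (120.7, against 118.2 in M2627), and the other markers of the list in M2627. In percent of the miRNA-26b+/+ mean, M2627 had 477 for *Sfrp5* and 217 for the adipocyte sum, and M2630 had 157 and 147. M2626 had 186 and 102, M2628 had 147 and 68.9, M2629 had 62.8 and 101, and M2631 had 80.6 and 52.2. *Sfrp5* was thus above the adipocyte sum on this scale in M2626, M2627 and M2628, and also in M2630 and M2631 of miRNA-26b+/+. In M2629 *Sfrp5* was below it. Both series are scaled to their own miRNA-26b+/+ mean, so within that group values above and below must balance. The miRNA-26b+/+ libraries therefore cannot show whether such an excess differs by genotype. M2631, lowest for the adipocyte sum, was not lowest for *Sfrp5*. For 0 of the 8 adipocyte markers the unadjusted p was under 0.05, and 7 were on the higher side. The part of attached fat tissue in the level of *Sfrp5* was not tested.

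**Figure D3:**
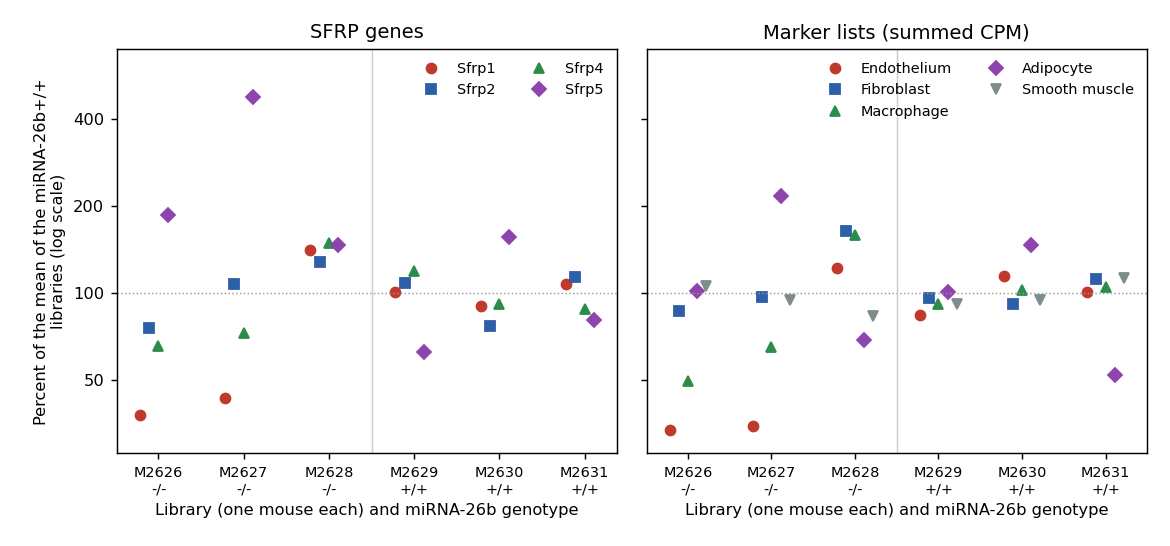
Left, CPM of the 4 SFRP genes and right, summed CPM of 5 marker lists, each in percent of the mean of the 3 miRNA-26b+/+ libraries on a log axis, with 1 symbol per library. *Sfrp1* and the endothelial sum are both low in M2626 and M2627, at between 33.6% and 43.6%, and *Sfrp5* and the adipocyte sum are both highest in M2627.

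Of the Dickkopf genes, *Dkk3*, a divergent member of the family, varied little. It had 610.2, 674 and 586 CPM in miRNA-26b-/- mice and 605, 655 and 713 in miRNA-26b+/+ mice (623 ± 45.5 and 658 ± 53.7, SD, n = 3 each). The difference was smaller than the spread within either group (log2 fold change -0.08, SE 0.13, adjusted p = 0.96). *Dkk2* had 82, 79 and 65 counts against 0, 77 and 70, so that its log2 fold change of 0.63 (SE 0.87, adjusted p = 0.945) rested on M2629 and was 0.02 without it. *Dkk1* had 9 counts in M2627 and 16 in M2630 and 0 elsewhere.

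The spread within the genotypes differed for many of the 28 genes. On the log2(CPM + 0.5) scale, the SD over the miRNA-26b-/- mice was larger than that over the miRNA-26b+/+ mice for 22 of the 28 genes (78.6%), against 57.9% of all genes tested. The median SD was 0.46 in miRNA-26b-/- and 0.24 in miRNA-26b+/+ mice, and 0.38 and 0.32 over all genes. *Sfrp1* had 1.03 and 0.13, *Wnt5a* 0.80 and 0.12, and *Fzd6* 0.54 and 0.07. M2628 was the highest of the 6 libraries for 10 of the 28 genes, among them *Sfrp1*, *Sfrp2*, *Sfrp4*, *Wnt2b*, *Wnt5a* and *Wnt16*, and the lowest for 8, among them *Fzd1*, *Fzd2*, *Fzd7*, *Fzd8* and *Dkk3*. M2626 was the lowest for 11. Over all genes tested, M2628 was the highest for 20% and the lowest for 21.6%, and M2626 the lowest for 20.4%. These are descriptions of 3 mice a group and were not tested.

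**Figure D4:**
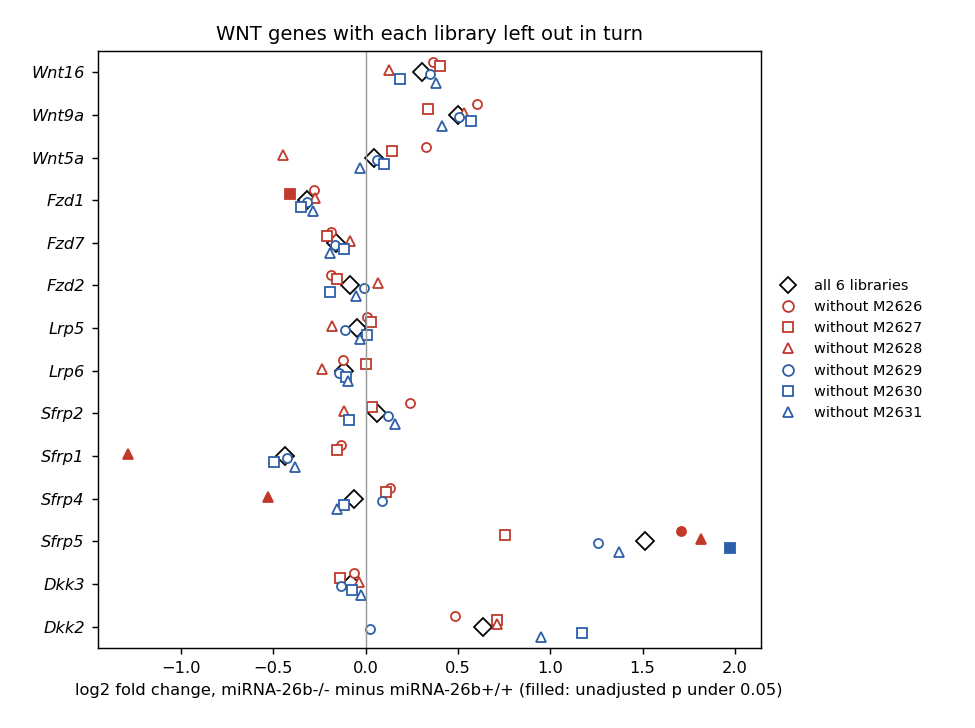
Log2 fold change of 14 of the 16 tested WNT genes named by rule, over all 6 libraries (diamonds) and in the fits that drop 1 library (red, a miRNA-26b-/- library; blue, a miRNA-26b+/+ library; filled, unadjusted p under 0.05). *Sfrp1* moved to -1.29 and *Sfrp4* to -0.53 without M2628, and *Sfrp5* to 0.76 without M2627; *Wnt4* and *Wnt6*, which have few reads, are not drawn.

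Around these genes, 100 others of the pathway were read from 6 lists, and 89 of them were tested. None passed an adjusted p of 0.05 in edgeR's quasi-likelihood test (smallest 0.64), and 8 had an unadjusted p under 0.05 (8.99%, against 6.46% of all genes), 2 on the higher and 6 on the lower side. The groups did not overlap for 14 (15.7%, against 11.5%). The median log2 fold change was 0.01.

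WNT secretion showed 0 of 3 tested genes with an unadjusted p under 0.05. *Wls*, which carries WNT proteins to the cell surface, had 211, 231 and 198 CPM in miRNA-26b-/- mice and 249, 225 and 207 in miRNA-26b+/+ mice (log2 fold change -0.09, SE 0.14). Of the 17 tested co-receptors and inhibitors with other names, 4 had an unadjusted p under 0.05, all lower. That is 23.5%, the highest share of the 6 lists, against 6.46% of all genes tested (3.07% lower). The groups did not overlap for 5 of the 17 (29.4%, against 11.5% of all genes): *Sost*, *Ror2*, *Reck*, *Gpc4* and *Adgra2*. *Sost*, whose product sclerostin binds LRP5 and LRP6, was more abundant per kb (797 CPM per kb) than any of the 39 genes, with 1603, 1413 and 1451 CPM against 2010, 1673 and 1730 and no overlap (-0.28, SE 0.12, unadjusted p = 0.0411, adjusted p = 0.749). *Reck*, which helps brain endothelial cells to sense WNT7, had 109, 136 and 162 CPM against 166, 197 and 190 (-0.44, SE 0.17, unadjusted p = 0.0193, adjusted p = 0.736). The groups did not overlap for *Reck* either. *Mcam*, a surface protein of smooth muscle and endothelium, had 1129, 893 and 1032 CPM against 1240, 1096 and 1414, with M2626 above M2630 (-0.30, SE 0.14, unadjusted p = 0.047, adjusted p = 0.763). *Ror2*, a receptor of WNT5A, had 18, 0 and 0 counts against 48, 49 and 94 (-3.36, SE 1.38, unadjusted p = 0.0266, adjusted p = 0.736).

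Of the 25 tested genes of the beta-catenin route inside the cell, 2 had an unadjusted p under 0.05 (8%, against 6.46% of all genes tested). *Ctnnb1*, which codes for beta-catenin, had 1005, 955 and 1117 CPM against 936, 919.7 and 983 (0.12, SE 0.12, adjusted p = 0.931). *Ctnnbip1*, an inhibitor of the binding of beta-catenin to TCF factors, was higher with 25.1, 19.8 and 24.3 CPM against 12.4, 9.93 and 12.2 (0.99, SE 0.30, unadjusted p = 0.0048, adjusted p = 0.734). *Dvl3*, an adaptor under the Frizzled receptors, was lower with 49.4, 63.3 and 44.4 CPM against 69.0, 63.9 and 79.7 (-0.43, SE 0.20, adjusted p = 0.756). The groups did not overlap for 3 of the 25 (12%, against 11.5% of all genes): *Ctnnbip1*, *Dvl3* and *Tnks*. For *Dvl3*, M2627 and M2630 were under 1 CPM apart.

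Of the 18 tested target and feedback genes of beta-catenin, 0 had an unadjusted p under 0.05, 10 were on the higher and 8 on the lower side, and the median was 0.04. *Ccn5*, the highest of them in CPM, had 234, 260 and 265 CPM against 236, 231 and 260.1. *Axin2*, a common readout of the pathway named after its values were seen, had 2.73, 9.67 and 5.06 CPM against 4.43, 4.44 and 3.47 (0.57, SE 0.58, adjusted p = 0.928). The groups did not overlap for 1 of the 18 (5.56%, against 11.5% of all genes), *Myc*, also named after its values were seen. It had 0.663, 2.29 and 4.71 CPM against 6.29, 7.42 and 4.89 (-1.25, SE 0.63, adjusted p = 0.769). The R-spondin and LGR list had 0 of 7, and *Lgr6*, its highest gene in CPM, had 369, 403 and 386 CPM against 447, 414 and 442, without overlap (-0.17, SE 0.13, adjusted p = 0.866). *Lgr6* was the 1 gene of these 7 without overlap (14.3%, against 11.5% of all genes).

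In the list for cell polarity and calcium, 2 of the 23 tested genes had an unadjusted p under 0.05 (8.7%, against 6.46% of all genes tested). *Camk2b*, a subunit of a calcium-dependent kinase, had 46.4, 44.8 and 47.1 CPM against 16.8, 23.7 and 29.2 (log2 fold change 0.99, SE 0.24, unadjusted p = 0.000909, adjusted p = 0.64). *Nlk*, a kinase that acts on TCF factors, had 8.16, 10.7 and 12.3 CPM against 21.6, 19.9 and 19.2 (-0.96, SE 0.31, unadjusted p = 0.0082, adjusted p = 0.736). The groups did not overlap for 4 of the 23 (17.4%, against 11.5% of all genes): *Camk2b*, *Nlk*, *Prickle1* and *Scrib*. *Rhoa*, the highest of the list in CPM, had 299, 342 and 299.9 CPM against 328, 300.4 and 363 (-0.07, SE 0.14).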

How the data were processed

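The authors sequenced RNA of the aortic arch and thoracic aorta (TruSeq libraries), used STAR and GRCm38 for the alignment, and deposited raw counts per gene from featureCounts 1.6.4 on GENCODE vM21 per the file header (the methods name another release). Strand was ignored, and a read over exons of several genes counted for each of them. A second deposited table, with log2 CPM and the authors' fold changes and p-values, was not used.

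Genes with at least 2 counts and over 1 CPM in at least 2 libraries were kept and TMM-scaled, and edgeR 4.0.16 (quasi-likelihood test, R 4.3.3, prior count 0.125) gave the tests, with Benjamini-Hochberg adjustment over all genes tested. CPM were computed on TMM-scaled library sizes. The procedure was tested on simulated data. Depth was 25706728 to 33345037 counts, and precision is limited by 3 mice a group.

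The members and lists were chosen with earlier results of these data known. Named genes were those with an unadjusted p under 0.05, without overlap or with an absolute log2 fold change of at least 1, the 3 highest per kb of each role, and of each other list those with an unadjusted p under 0.05 and the highest in CPM; members and genes outside this rule were named after their values were seen. Endothelial, fibroblast, macrophage, adipocyte, smooth muscle, Schwann cell, sympathetic neuron, heart muscle, fast skeletal muscle, lymphocyte and mesothelium markers were summed. The 3′ UTRs were those of protein-coding transcripts in GENCODE vM21. Alternatives were the normalization, the filter, the test (DESeq2 1.42.0, limma 3.58.1 voom, likelihood ratio, robust and earlier quasi-likelihood), the prior count, and dropping 1 library at a time; the 3p seed was added after seeing the data.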

Additional observations from a re-analysis of the deposited data

How the results depend on the processing

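All values rest on 3 mice a group. The number of the 28 genes with an unadjusted p under 0.05 was 2 over all libraries, 1 with library sizes alone, with the likelihood ratio test and without the CPM filter, 3 with limma voom, and from 0 to 4 with a library left out. Of all genes tested, 6.46% had such a p over all libraries, 6.49% with library sizes alone and 4.96% with the likelihood ratio test. The share was 4.58% without the CPM filter and 5.29% with limma voom. With a library left out it ran from 4.36% (without M2631) to 10.8% (without M2628, the fit with 4 of the 28). The number of the 28 genes with an adjusted p under 0.05 was 0 to 1 with a library left out, the 1 being *Sfrp1* without M2628, and their median log2 fold change was -0.137 to 0.059. Without M2628, 0.524% of all genes tested passed the adjusted threshold. The pathway lists had 5 to 8 genes with an unadjusted p under 0.05, beside shares of all genes tested between 4.36% and 10.8%. The 3p seed matched 14 genes, against 6 for the 5p seed.

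*Fzd1* kept its direction throughout, and its unadjusted p was 0.0551 with library sizes alone, 0.0718 with the likelihood ratio test and 0.0512 without the CPM filter. *Sfrp1* had -0.70 with limma voom (unadjusted p = 0.0454). *Wnt5a* turned to -0.088 with limma voom. With a library left out, the sign turned for 14 of the 28 genes, 7 of them named by rule and the others *Wnt2*, *Wnt2b*, *Wnt9b*, *Fzd3*, *Fzd4*, *Fzd6* and *Fzd9*. The log2 fold changes of these 7 spanned 0: *Wnt5a* (-0.448 without M2628 to 0.329), *Wnt6* (-0.644 without M2627 to 2.504), *Sfrp2* (-0.115 without M2628 to 0.240), *Sfrp4* (-0.527 without M2628 to 0.133), *Fzd2* (-0.191 to 0.069 without M2628), *Lrp5* (-0.182 to 0.030 without M2627) and *Lrp6* (-0.238 to 0.004 without M2627). The cause was not tested. No paired analysis was possible because the labels number no replicates and tie no mouse of one group to a mouse of the other; the replicate numbers used here follow accession order.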

Other observations

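Marker lists that no result above turns on were also summed. Sympathetic neuron markers summed to 10.8, 257 and 11.8 CPM in the miRNA-26b-/- libraries and to 12.3, 52.3 and 22.7 in the miRNA-26b+/+ libraries. Fast skeletal muscle markers summed to 31.8, 90.8 and 8.39 CPM against 6.49, 11.2 and 3.24, and heart muscle markers to 114, 377 and 143 against 153, 408 and 149. Mesothelium markers summed to 15.6, 24.0 and 8.78 CPM against 9.84, 11.8 and 21.9, and lymphocyte markers to at most 8.06 in any library. M2627, the library with the highest *Sfrp5* and *Wnt9a*, was thus also the highest of the miRNA-26b-/- libraries for neuron and for both kinds of striated muscle markers, and what this contributes to the level of either gene was not tested.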
